A study of Rattus norvegicus with 12 samples.

Results

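The 7 genes described here build and run the excitatory synapse of the cortex: Slc17a7, Grin1, Grin2a, Grin2b, Gria1, Dlg4 and Camk2a. They were chosen, with earlier results of these data known, by Ensembl gene identifier from a fixed list. All 7 were found among the 43206 genes of the rat prefrontal cortex data. The files give identifiers without gene names, so the symbols are those that came with the list (ENSRNOG00000020650 for Slc17a7, ENSRNOG00000011726 for Grin1, ENSRNOG00000033942 for Grin2a, ENSRNOG00000008766 for Grin2b, ENSRNOG00000045816 for Gria1, ENSRNOG00000018526 for Dlg4 and ENSRNOG00000018712 for Camk2a). Prefrontal tissue of rats of the SD strain, aged 28 postnatal days, gave 12 RNA libraries. By their labels, 4 are normal (replicates 8, 10, 11 and 13), 4 belong to a hypoxic-ischemic brain damage (HIBD) model group (replicates 2, 8, 16 and 18) and 4 to an acupuncture group (replicates 5, 22, 35 and 55). The acupuncture labels name only that treatment, and the series title places it in rats with HIBD. The labels do not describe how the damage was made or how the needles were used, nor do they tie each library to 1 animal. The p-values therefore weigh differences between groups against the spread of these libraries, and that spread may be technical.

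Glutamate is the main excitatory transmitter of the cortex. It is loaded into synaptic vesicles by transporters such as Slc17a7 (VGLUT1) and acts on AMPA receptors, which carry the fast current, and on NMDA receptors, which pass calcium when glutamate arrives at an already depolarised membrane. NMDA receptors combine the obligatory subunit Grin1 with subunits such as Grin2b, prominent early in cortical development, and Grin2a, which gains ground as the cortex matures. Dlg4 (PSD-95) is the scaffold that holds these receptors in the postsynaptic density, and Camk2a is a calcium-dependent kinase that translates calcium entry into lasting changes of synaptic strength. Excess glutamate and overactive NMDA receptors are a classical route of neuronal injury after hypoxia-ischemia.

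Levels are given first as FPKM (fragments scaled to transcript length and library size, the deposited value summed over the transcripts of a gene) as the unit scaled to length. The comparison of levels between genes has a limit, because the factor that ties the deposited estimated counts to FPKM differed widely between genes, and whether it is transcript length alone was not tested. Relative to the leading row of Slc17a7, it was 36.9 times larger for Grin2b, 15.9 times for Grin2a, 12.2 times for Gria1, 8.55 times for Camk2a, 2.26 times for Grin1 and 2.18 times for Dlg4. What this factor holds is unknown, so orders and ratios between genes are those of the deposited FPKM and would differ in estimated counts. It is constant across libraries for a row, so comparisons of 1 transcript row between groups do not rest on it. By deposited FPKM all 7 genes were abundant. Over the 12 libraries Camk2a averaged 512 FPKM and ranked 50 among the 27885 genes tested, and Slc17a7 averaged 386 FPKM and ranked 76. Dlg4 averaged 241 FPKM (rank 146), Grin1 105 FPKM (rank 437), Grin2b 75.5 FPKM (rank 716), Gria1 66.3 FPKM (rank 852) and Grin2a 49.6 FPKM (rank 1260). Slc17a7 and Camk2a are characteristic of forebrain excitatory neurons, and they were the most abundant of the 7 in tissue labelled as prefrontal cortex. Markers of glia, interneurons and striatal neurons had been listed by symbol and could not be matched to identifiers, so they were not analysed here. In bulk tissue, fewer cells of a type and less RNA per cell cannot be told apart.

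The order of the genes by FPKM was Camk2a, Slc17a7, Dlg4 and Grin1 in every group and in all 4 libraries of each. Below Grin1 the order differed between groups. In the normal group Gria1 came next, then Grin2b and Grin2a, in 4 of 4 libraries. In the acupuncture group Gria1 came last, below Grin2b and Grin2a, also in 4 of 4 libraries. In the HIBD model group Grin2b lay above Gria1 in 2 of 4 libraries and Gria1 above Grin2a in 2 of 4, so these neighbours did not differ beyond the spread of the libraries.

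**Figure D1:**
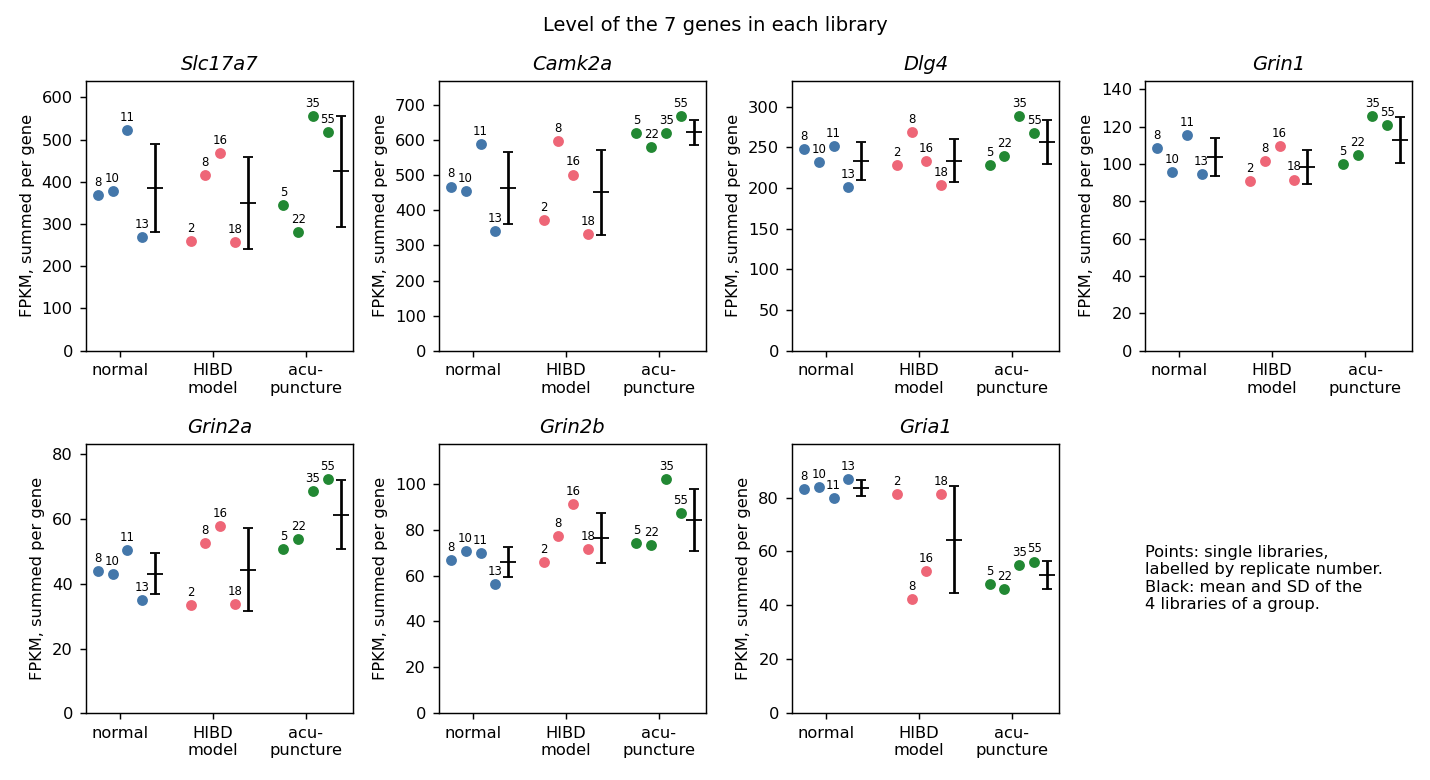
FPKM of each gene (vertical axis, from 0) in the 12 libraries, with points labelled by replicate number and the mean and SD of each group in black. Gria1 lay between 79.7 and 86.9 FPKM in the normal group and between 46.0 and 56.3 FPKM in the acupuncture group, while HIBD model libraries lay at 81.2, 81.1, 52.8 and 42.3 FPKM.

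Gria1, the AMPA receptor subunit GluA1, had the smallest p-value of the 7 genes between acupuncture and normal libraries, although the log2 fold change of Grin2a was larger in size. It measured 83.2, 83.8, 79.7 and 86.9 FPKM in normal replicates 8, 10, 11 and 13. In HIBD model replicates 2, 8, 16 and 18 it measured 81.2, 42.3, 52.8 and 81.1 FPKM. In acupuncture replicates 5, 22, 35 and 55 it measured 47.8, 46.0, 54.8 and 56.3 FPKM. All 4 acupuncture libraries lay below all 4 normal libraries. FPKM of these 2 groups did not overlap, in either direction, for 22% of all genes tested. The HIBD model group held 2 libraries near the normal level and 2 at 42.3 and 52.8 FPKM, of which the lower lay below every acupuncture library. The group values were 83.4 ± 2.96 FPKM in normal, 64.4 ± 19.8 FPKM in HIBD model and 51.2 ± 5.08 FPKM in acupuncture libraries (SD, n = 4 each). Within the normal group Gria1 was unusually steady: its SD was 3.55% of its mean, at percentile 7.21 among the 3646 genes with a mean of at least 20 FPKM. In the HIBD model group the SD was 30.8% of the mean, at percentile 89.3 of the same genes.

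Differences between groups were tested with edgeR's quasi-likelihood test on estimated counts summed per gene, with p-values adjusted over all 27885 genes by the Benjamini-Hochberg method. Between acupuncture and normal libraries the Gria1 difference was -0.58 on the log2 scale (SE 0.14), or 0.669 of the normal level, which did not pass (edgeR unadjusted p = 0.0016, adjusted p = 0.101). Between HIBD model and normal libraries it was -0.31 (SE 0.14, edgeR unadjusted p = 0.0482, adjusted p = 0.219), and for acupuncture against HIBD model libraries -0.27 (SE 0.14, edgeR adjusted p = 0.971). The comparisons share libraries pairwise, so they are not independent of each other. The acupuncture against normal difference passed in 3 of 20 alternatives. These were DESeq2 (adjusted p = 0.00422), edgeR fitted to the 2 groups alone (adjusted p = 0.0157) and limma on log2(FPKM + 0.1) (adjusted p = 0.0474). Of all genes, 15.5%, 3.07% and 6.24% passed in these fits. Its direction was the same in 20 of 20, with log2 fold changes from -0.71 to -0.25.

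The Gria1 value is the sum of 5 transcript rows, of which 3 have an Ensembl identifier and 2 were named by an assembler. ENSRNOT00000073148 held most of it, between 65.7% and 84% of the gene's FPKM. This transcript measured 63.5, 60.4, 61.4 and 73.0 FPKM in normal replicates 8, 10, 11 and 13, and 56.0, 29.1, 40.7 and 59.3 FPKM in HIBD model replicates 2, 8, 16 and 18. It measured 31.4, 34.5, 40.3 and 41.3 FPKM in acupuncture replicates 5, 22, 35 and 55. All 8 libraries of the HIBD model and acupuncture groups therefore lay below all 4 normal libraries for the leading transcript, as they did for 2.22% of the 53666 transcript rows tested. The gap was narrow, with HIBD model replicate 18 at 59.3 FPKM and normal replicate 10 at 60.4 FPKM. In a test of 53666 transcript rows, added after the data were seen, its log2 fold change was -0.72 (SE 0.17) between acupuncture and normal (edgeR unadjusted p = 0.00164, adjusted p = 0.181) and -0.44 (SE 0.17) between HIBD model and normal (edgeR unadjusted p = 0.0282, adjusted p = 0.259). In those tests 0.0559% and 0.0335% of transcript rows passed an adjusted p of 0.05, and 17.6% and 16% had an unadjusted p under 0.05. For acupuncture against HIBD model it was -0.29 (SE 0.17, edgeR adjusted p = 1), where 0.00745% of rows passed and 4.58% had an unadjusted p under 0.05.

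The other 2 Ensembl transcripts of Gria1 took turns. ENSRNOT00000071615 was listed at 19.6, 18.0, 13.6 and 14.2 FPKM in normal replicates 8, 11 and 13 and acupuncture replicate 35, and at 0 in the other 8 libraries. ENSRNOT00000081136 was at or near 0 in exactly those 4 libraries and between 11.0 and 24.2 FPKM in the other 8. A 0 in such files can be a failed estimate, so the switch is given as listed. What differs in sequence between these transcripts is not in the files. The 2 assembler-named rows stayed at or below 0.811 FPKM and added at most 1.7% and 1.07% of the gene's FPKM. Normal replicate 10 carried ENSRNOT00000081136 in place of ENSRNOT00000071615, and its gene sum of 83.8 FPKM lay within the range of the other normal libraries.

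**Figure D2:**
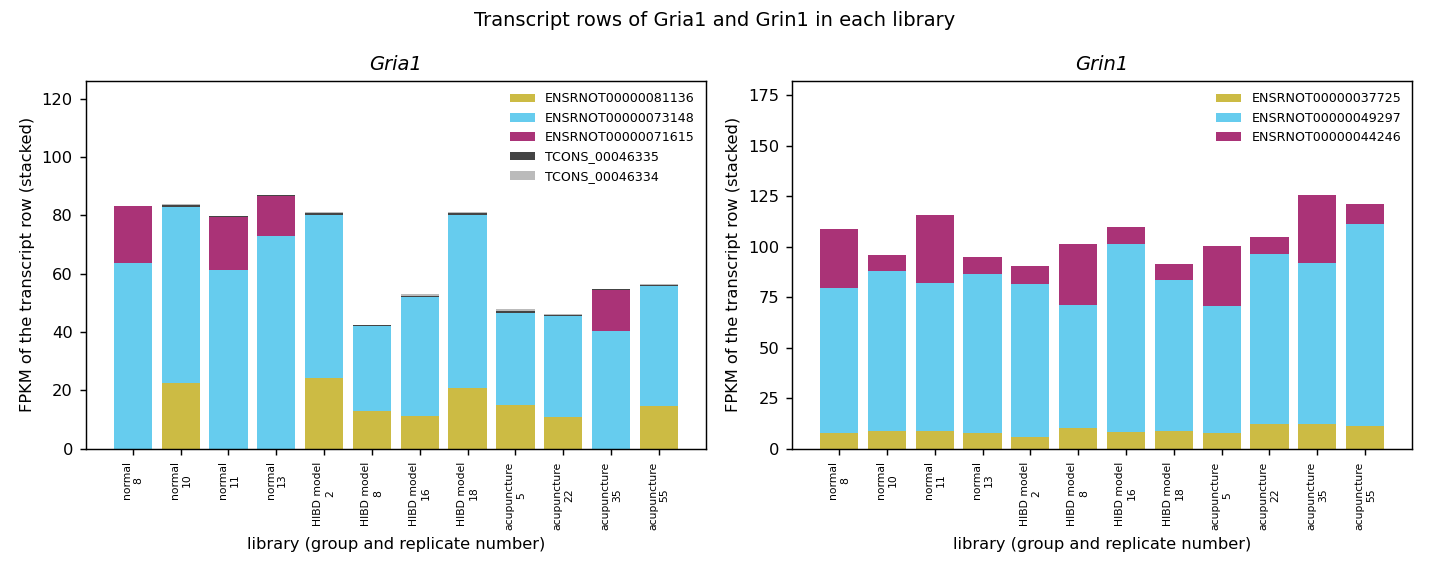
FPKM of each transcript row of Gria1 and Grin1 (vertical axis, stacked) in the 12 libraries (horizontal axis). For Gria1 the row ENSRNOT00000073148 carried the difference in height between normal and acupuncture libraries, and the 2 other Ensembl rows alternated; for Grin1 the row ENSRNOT00000044246 was either 7.49 to 9.77 or 29.4 to 33.6 FPKM, with both kinds in each group.

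Grin2b, the NMDA receptor subunit that dominates in the young cortex, had higher values in the acupuncture than in the normal group. It measured 66.6, 70.5, 69.6 and 56.3 FPKM in normal replicates 8, 10, 11 and 13. In HIBD model replicates 2, 8, 16 and 18 it measured 65.9, 77.2, 91.1 and 71.6 FPKM. In acupuncture replicates 5, 22, 35 and 55 it measured 74.3, 73.3, 102 and 87.2 FPKM. All acupuncture libraries lay above all normal libraries, and 3 of 4 HIBD model libraries did too. Acupuncture and normal FPKM did not overlap, in either direction, for 22% of all genes tested. The group values were 65.8 ± 6.53, 76.5 ± 10.8 and 84.2 ± 13.5 FPKM in normal, HIBD model and acupuncture libraries (SD, n = 4 each). The log2 fold change between acupuncture and normal was 0.49 (SE 0.17, edgeR unadjusted p = 0.0178, adjusted p = 0.132), that between HIBD model and normal was 0.33 (SE 0.17, edgeR adjusted p = 0.294) and that of acupuncture against HIBD model was 0.15 (SE 0.17, edgeR adjusted p = 1). None passed in edgeR. The first passed in DESeq2 (adjusted p = 0.0327), where 15.5% of all genes passed, and in no other of its 20 alternatives.

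Grin2a, the NMDA receptor subunit that gains ground with maturation, varied more between libraries. It measured 44.0, 43.0, 50.5 and 34.9 FPKM in normal replicates 8, 10, 11 and 13. In HIBD model replicates 2, 8, 16 and 18 it measured 33.3, 52.6, 57.8 and 33.7 FPKM. In acupuncture replicates 5, 22, 35 and 55 it measured 50.6, 53.8, 68.6 and 72.4 FPKM. The acupuncture libraries lay above the normal ones, but only just, since acupuncture replicate 5 and normal replicate 11 were nearly equal. Such a lack of overlap between acupuncture and normal FPKM, in either direction, held for 22% of all genes tested. HIBD model replicates 2 and 18 were the lowest of all 12 libraries. The group values were 43.1 ± 6.38, 44.4 ± 12.7 and 61.3 ± 10.7 FPKM in the same order (SD, n = 4 each). The log2 fold change between acupuncture and normal was 0.63 (SE 0.25, edgeR unadjusted p = 0.028, adjusted p = 0.157), against HIBD model 0.46 (SE 0.25, edgeR adjusted p = 0.976) and between HIBD model and normal 0.17 (SE 0.25, edgeR adjusted p = 0.743).

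The balance of Grin2a to Grin2b can be read within each library, where differences in normalization cancel. Grin2b exceeded Grin2a in all 12 libraries. The ratio of their FPKM was 0.66, 0.61, 0.725 and 0.62 in normal replicates 8, 10, 11 and 13, and 0.505, 0.682, 0.635 and 0.471 in HIBD model replicates 2, 8, 16 and 18. It was 0.681, 0.733, 0.672 and 0.83 in acupuncture replicates 5, 22, 35 and 55. The groups overlapped in each comparison with normal, and HIBD model replicate 8 lay within the acupuncture range. Differences in mean log2 ratio were tested by exact permutation, two-sided, over 70 assignments of the labels, with adjustment over 3 comparisons. HIBD model minus normal gave -0.20 (exact p = 0.257, adjusted p = 0.257). Acupuncture minus HIBD model gave 0.36 (exact p = 0.0857, adjusted p = 0.171), and acupuncture minus normal gave 0.155 (exact p = 0.114, adjusted p = 0.171). With 4 libraries against 4 the smallest possible p is 0.0286, which for a single comparison becomes 0.0857 after adjustment over 3. No comparison could pass 0.05 alone, so the test says little about whether the balance shifted. The SD of the log2 ratio was 0.11 in normal, 0.26 in HIBD model and 0.14 in acupuncture libraries.

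The ratio of Gria1 to Grin2a was looked at after the values were seen, so it is a description without a test. Gria1 exceeded Grin2a in every normal library, by 1.89, 1.95, 1.58 and 2.49 times in replicates 8, 10, 11 and 13. In every acupuncture library it was below Grin2a, at 0.945, 0.856, 0.80 and 0.778 of its FPKM in replicates 5, 22, 35 and 55. HIBD model replicates 2 and 18 resembled the normal libraries at 2.44 and 2.41, and replicates 8 and 16 the acupuncture libraries at 0.805 and 0.914. Relative to Grin1, Gria1 stood at 0.689 to 0.917 in normal and at 0.437 to 0.477 in acupuncture libraries. In HIBD model replicates 2, 8, 16 and 18 it stood at 0.896, 0.418, 0.482 and 0.885.

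**Figure D3:**
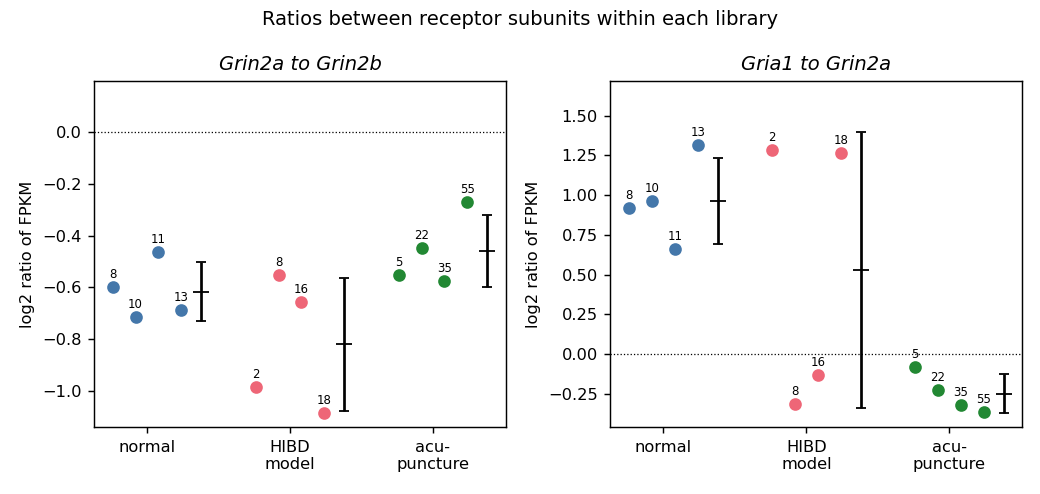
Log2 ratio of FPKM (vertical axis) of Grin2a to Grin2b and of Gria1 to Grin2a in each library, labelled by replicate number, with the mean and SD of each group in black and a dotted line where both genes are equal. The Grin2a to Grin2b ratios of the groups overlap. The Gria1 to Grin2a ratio, picked after the values were seen and not tested, was above the line in all normal and below it in all acupuncture libraries. Where the line falls rests on the deposited FPKM.

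Grin1, the subunit that every NMDA receptor contains, was the steadiest of the NMDA receptor genes across the 12 libraries, between 90.6 and 126 FPKM. It measured 109, 95.7, 116 and 94.8 FPKM in normal replicates 8, 10, 11 and 13. In HIBD model replicates 2, 8, 16 and 18 it measured 90.6, 101.4, 109.6 and 91.7 FPKM. In acupuncture replicates 5, 22, 35 and 55 it measured 100.15, 105, 126 and 121 FPKM. The groups overlapped in every comparison, with 104 ± 10.2, 98.3 ± 8.96 and 113 ± 12.3 FPKM in normal, HIBD model and acupuncture libraries (SD, n = 4 each). The log2 fold change was 0.25 (SE 0.14, edgeR adjusted p = 0.284) between acupuncture and normal, 0.22 (SE 0.14, edgeR adjusted p = 1) for acupuncture against HIBD model and 0.03 (SE 0.14, edgeR adjusted p = 0.919) between HIBD model and normal. Grin1 is made as several splice forms, and 3 transcript rows were listed. ENSRNOT00000049297 held between 59.7% and 84.6% of its FPKM. ENSRNOT00000044246 held between 7.65% and 30.1%: it measured 29.4 and 33.6 FPKM in normal replicates 8 and 11, 30.5 FPKM in HIBD model replicate 8, and 29.5 and 33.6 FPKM in acupuncture replicates 5 and 35, against 7.49 to 9.77 FPKM in the other 7 libraries. High and low libraries of this row occurred in every group.

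Slc17a7, the vesicular transporter of cortical excitatory terminals, varied widely within each group. It measured 369, 379, 523 and 268 FPKM in normal replicates 8, 10, 11 and 13. In HIBD model replicates 2, 8, 16 and 18 it measured 259, 416, 468 and 258 FPKM. In acupuncture replicates 5, 22, 35 and 55 it measured 344, 282, 555 and 517 FPKM. Each group therefore spanned a fold range of 1.82 to 1.97, and the groups overlapped throughout. The means were 385 ± 105, 350.1 ± 108 and 425 ± 132 FPKM in normal, HIBD model and acupuncture libraries (SD, n = 4 each). The SD was 27.2%, 30.9% and 31.2% of the mean in normal, HIBD model and acupuncture libraries, at percentiles 94.3, 89.3 and 95.4 of the 3646 genes with a mean of at least 20 FPKM. The log2 fold changes of -0.01 between HIBD model and normal, 0.27 between acupuncture and HIBD model and 0.26 between acupuncture and normal each had an SE of 0.32, and none passed (edgeR adjusted p = 0.993, 1 and 0.659). A single transcript, ENSRNOT00000028064, held at least 98.1% of its FPKM in every library.

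Camk2a, the kinase, was the most even of the 7 genes in the acupuncture group. It measured 619.5, 581, 620.0 and 668 FPKM in acupuncture replicates 5, 22, 35 and 55. In normal replicates 8, 10, 11 and 13 it measured 468, 456, 590 and 342 FPKM, and in HIBD model replicates 2, 8, 16 and 18 it measured 372, 598, 502 and 333 FPKM. Of the acupuncture libraries, 3 lay above all normal libraries in FPKM, and the fourth lay just below normal replicate 11. In CPM scaled by the trimmed mean of M-values (TMM) all 4 did. On that scale acupuncture and normal libraries did not overlap, in either direction, for 17.6% of all genes tested. The means were 464 ± 101.3, 451 ± 121 and 622 ± 35.7 FPKM in normal, HIBD model and acupuncture libraries (SD, n = 4 each). The SD was 5.74% of the mean in acupuncture, against 21.8% in normal and 26.9% in HIBD model libraries. The difference in spread was not tested. The log2 fold change was 0.55 (SE 0.25, edgeR unadjusted p = 0.0476, adjusted p = 0.199) between acupuncture and normal, 0.47 (SE 0.25, edgeR adjusted p = 0.974) for acupuncture against HIBD model and 0.09 (SE 0.25, edgeR adjusted p = 0.883) between HIBD model and normal. Nearly all of the value, at least 99.97% in every library, came from the transcript ENSRNOT00000041533.

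Dlg4, the postsynaptic scaffold, differed little between groups. It measured 248, 232, 252 and 201 FPKM in normal replicates 8, 10, 11 and 13. In HIBD model replicates 2, 8, 16 and 18 it measured 229, 269, 234 and 204 FPKM, and in acupuncture replicates 5, 22, 35 and 55 it measured 229, 239, 288 and 268 FPKM. The groups overlapped in every comparison, with 233 ± 23.0, 234 ± 26.9 and 256 ± 27.1 FPKM in normal, HIBD model and acupuncture libraries (SD, n = 4 each). The log2 fold change was 0.26 (SE 0.14, edgeR adjusted p = 0.285) between acupuncture and normal, 0.15 (SE 0.14, edgeR adjusted p = 1) for acupuncture against HIBD model and 0.11 (SE 0.14, edgeR adjusted p = 0.707) between HIBD model and normal.

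**Figure D4:**
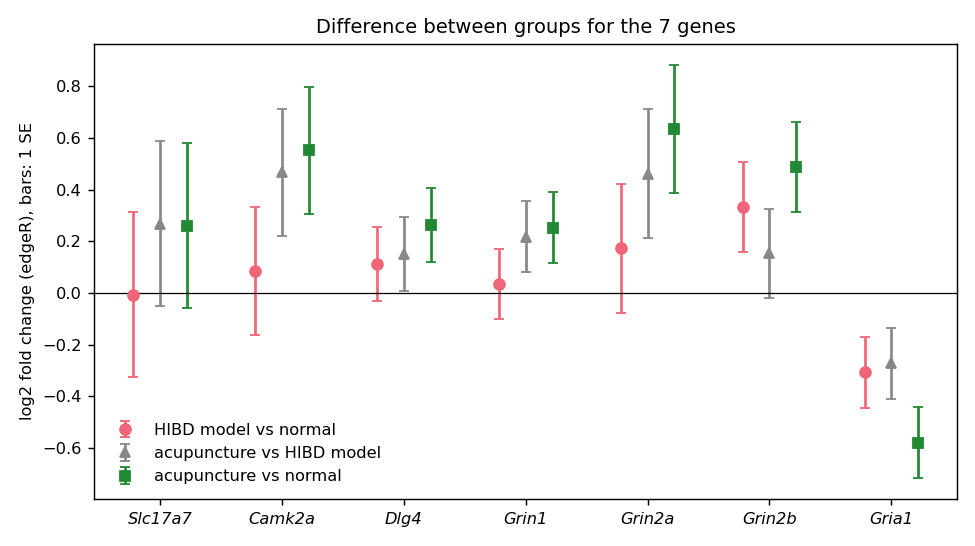
Log2 fold change of each gene from the edgeR fit over all 12 libraries (vertical axis), with bars of 1 SE, for the 3 comparisons. Gria1 lay below 0 and the other 6 genes above 0 between acupuncture and normal, from -0.58 for Gria1 to 0.63 for Grin2a; no gene passed an adjusted p of 0.05.

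Counted as a list, none of the 7 genes passed an adjusted p of 0.05 in any comparison in the edgeR fit over all 12 libraries. The 7 were chosen with earlier results of these data known, so setting them against all genes is a description. Between HIBD model and normal libraries 0.0968% of all genes tested passed. At an unadjusted p under 0.05 stood 1 of the 7, Gria1, which was lower, against 22.4% of all genes (13.6% higher and 8.83% lower). DESeq2, limma-voom and limma on log2(FPKM + 0.1) called 0 of the 7, where they called 13.5%, 0.0179% and 4.97% of all genes, and edgeR on the 2 groups alone called 0 of the 7 and 0% of all genes. The median log2 fold change of the 7 was 0.09, against 0.01 over all genes and -0.10 over genes with a mean of at least 20 FPKM. Between acupuncture and HIBD model libraries 0% of all genes passed. At an unadjusted p under 0.05 stood 0 of the 7, against 5.31% of all genes (1.94% higher and 3.37% lower). DESeq2, limma-voom and edgeR on the 2 groups alone each called 0 of the 7, where they called 0.631%, 0% and 0.00374% of all genes. No gene of the 7 was separated between these groups in FPKM or TMM-scaled CPM, against 1.97% and 2.27% of all genes. The median of the 7 was 0.22, against 0.00 over all genes and 0.05 over genes with a mean of at least 20 FPKM. Between acupuncture and normal libraries 0.0825% of all genes passed. At an unadjusted p under 0.05 stood 4 of the 7 (Grin2a, Grin2b and Camk2a higher, Gria1 lower), against 24.5% of all genes (14.1% higher and 10.4% lower). DESeq2 called 2 of the 7, where it called 15.5% of all genes, and limma-voom called 0 of the 7, where it called 0.0323%. Gria1 alone was called by edgeR on the 2 groups (3.07% of all genes) and by limma on log2(FPKM + 0.1) (6.24%). The median of the 7 was 0.26, against 0.02 over all genes and -0.06 over genes with a mean of at least 20 FPKM. FPKM did not overlap between these 2 groups for 3 of the 7 genes, against 22% of all genes, and TMM-scaled CPM for 4 of the 7, against 17.6%. In the comparison of HIBD model with normal no gene of the 7 was separated in FPKM, against 12.9% of all genes, and Gria1 alone in TMM-scaled CPM, against 11.5%. The share of all genes called in edgeR rested on single libraries. Without normal replicate 10, 3032 of 28592 genes passed between HIBD model and normal, in place of 27 of 27885. Between acupuncture and normal 3094 passed in place of 23. In either comparison 0 of the 7 were among them, though Gria1 came close between acupuncture and normal (edgeR adjusted p = 0.0503).

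Scaling mattered for small differences. On log2(FPKM + 0.1), which has no TMM scaling, the median over all genes was -0.10 between acupuncture and normal and -0.09 between HIBD model and normal. Camk2a and Grin1 were then lower in HIBD model than in normal libraries, at -0.05 and -0.08, in place of 0.09 and 0.03. Between acupuncture and normal all 7 kept their direction on that scale and with RLE normalization, but on log2(FPKM + 0.1) their sizes changed. Slc17a7, Dlg4 and Grin1 went from 0.26, 0.26 and 0.25 to 0.13, 0.13 and 0.12. Camk2a, Grin2a and Grin2b went from 0.55, 0.63 and 0.49 to 0.45, 0.50 and 0.35, and Gria1 from -0.58 to -0.71. With 1 surrogate variable in the fit, Slc17a7, Camk2a, Dlg4, Grin1 and Grin2a were lower in acupuncture than in normal libraries, from -0.47 to -0.03, Grin2b stood at 0.02, and Gria1 stood at -0.25 (SE 0.16; edgeR, adjusted p = 0.999).

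The variation between libraries of 1 group followed the same lines in most of the 7 genes. Normal replicate 13 and HIBD model replicates 2 and 18 were the 3 lowest of the 12 libraries for Slc17a7, Camk2a, Dlg4, Grin1 and Grin2a, both in FPKM and in TMM-scaled CPM. Over all genes tested, 2.24% had these 3 libraries lowest in FPKM and 4.2% in TMM-scaled CPM. Among genes with a mean of at least 20 FPKM the shares were 6.61% and 14.2%. These libraries were picked after their values were seen, so the shares are a description. Gria1 went the other way: all 3 libraries were among the 6 with the highest Gria1 FPKM. The TMM factors of the 3 libraries were 1.05, 1.13 and 1.07, the highest of the 12, against 0.944 to 1.03 in the others, and their part in the pattern was not tested. Within the HIBD model group, replicates 8 and 16 had 6 of the 7 genes above their mean over the 12 libraries and replicates 2 and 18 had 1, which was Gria1.

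**Figure D5:**
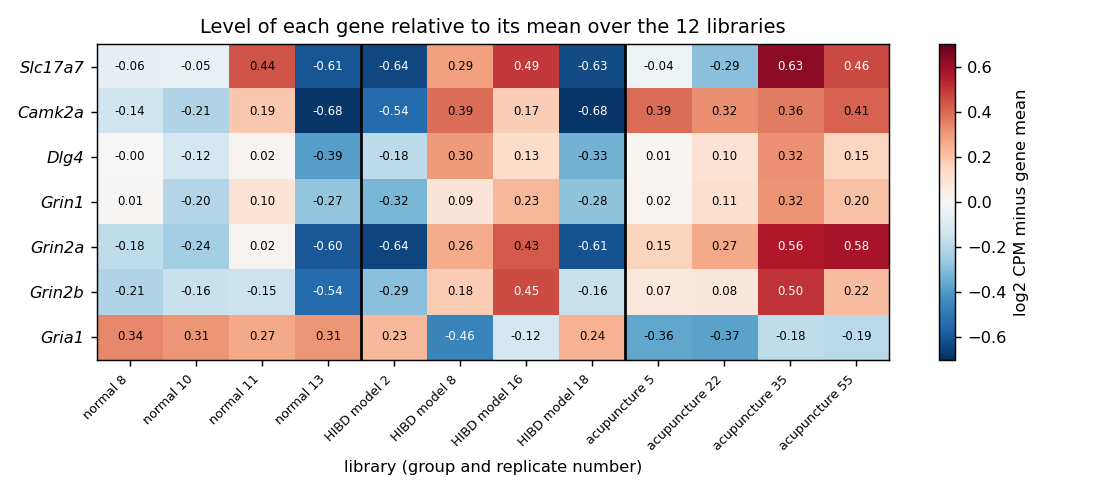
TMM-scaled log2 CPM of each gene minus its mean over the 12 libraries, in colour and digits, with libraries in columns and black lines between groups. Normal replicate 13 and HIBD model replicates 2 and 18 were below the mean for the 6 genes other than Gria1, and Gria1 was above its mean in these 3 libraries and in all normal libraries.

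Over the 12 libraries, the mean of the 7 centred log2 CPM profiles was compared with the 8669 other genes whose log2 CPM averaged 3 or more, by the root mean square difference. The nearest were ENSRNOG00000000483 at 0.0381 and ENSRNOG00000018651 at 0.0565, whose names are not in the files. The members themselves lay at 0.0647 (Grin1), 0.0901 (Dlg4), 0.141 (Grin2b), 0.205 (Grin2a), 0.215 (Camk2a), 0.226 (Slc17a7) and 0.485 (Gria1). By this measure Grin1 was the member closest to the mean profile and Gria1 the farthest. The measure counts the size of the swings as well as their direction, and the mean profile is built from the members themselves.

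Promoter sequences are shown for the 4 of the 5 genes sharing the 3 lowest libraries that had an entry in the RefSeq promoter table (build GRCr8, another build than that of the files), as the 250 bases before the annotated start, 5′ to 3′. The windows are chr1:104785955-104786204, plus strand, for Slc17a7, chr18:56648930-56649179, plus strand, for Camk2a, chr10:55239534-55239783, plus strand, for Dlg4, and chr3:28528755-28529004, minus strand, for Grin1. Capitals mark matches, on either strand, to the motifs searched: the GC box GGGCGG, the core half-site of the cAMP response element TGACG, the E-box CACGTG and the TATA box TATAAA.
Slc17a7: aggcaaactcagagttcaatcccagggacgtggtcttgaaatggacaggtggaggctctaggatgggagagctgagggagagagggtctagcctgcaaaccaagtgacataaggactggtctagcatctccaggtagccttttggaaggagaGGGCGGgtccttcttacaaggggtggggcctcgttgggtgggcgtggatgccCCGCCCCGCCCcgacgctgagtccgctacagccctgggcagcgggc
Camk2a: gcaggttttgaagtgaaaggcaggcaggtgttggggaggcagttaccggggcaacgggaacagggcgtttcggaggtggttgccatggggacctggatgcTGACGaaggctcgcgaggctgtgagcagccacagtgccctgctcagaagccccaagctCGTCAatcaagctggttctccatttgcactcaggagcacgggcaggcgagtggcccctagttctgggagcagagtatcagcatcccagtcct
Dlg4: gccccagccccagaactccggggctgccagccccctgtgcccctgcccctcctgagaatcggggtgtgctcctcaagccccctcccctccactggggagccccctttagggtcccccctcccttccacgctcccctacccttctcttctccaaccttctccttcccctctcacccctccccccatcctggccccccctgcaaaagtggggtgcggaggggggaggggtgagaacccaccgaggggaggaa
Grin1: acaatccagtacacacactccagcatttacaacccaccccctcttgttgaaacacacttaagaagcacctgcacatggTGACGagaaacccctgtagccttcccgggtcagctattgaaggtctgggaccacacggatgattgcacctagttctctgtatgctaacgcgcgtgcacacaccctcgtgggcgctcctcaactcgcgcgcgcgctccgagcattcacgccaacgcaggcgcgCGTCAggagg
Slc17a7 had 3 GC boxes, of which 2 overlap by 1 base, and Camk2a and Grin1 each had 2 TGACG half-sites. In the same window of 33469 promoters, 30.5% held a GC box and 18.2% the half-site. None of the 4 windows held CACGTG or TATAAA, which were in 5.59% and 12.9% of promoters, and Dlg4 held none of the 4 motifs. The windows held 61.2%, 60.4%, 69.2% and 57.6% G and C for Slc17a7, Camk2a, Dlg4 and Grin1, against a median of 51.2%. No searched motif was in all 4 windows. Even the commonest of the motifs searched, the GC box, was in only 30.5% of promoters. The lack of a shared motif therefore says nothing about the shared low libraries. A match is only a match of letters, and no binding was measured.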

How the data were processed

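Frozen tissue was extracted with Trizol and sequenced from NEBNext libraries, per the labels' protocols. The submitters' processing notes name HTSeq 0.6.0 and the build Rnor_6.0, with no role; the aligner and strand setting were not given in the sources used here. Deposited by the authors are estimated counts for 78025 transcript rows and, per library, FPKM values by gene identifier; the FPKM unit was read from the values. Rows were paired by order: over 12003 rows above 2000 in every library, the estimated count was the FPKM times a row and a library factor, within a median of 0.000884% (16.1% with rows shuffled). What 1 unit is worth in reads is unknown, so depth in reads is unknown and no counting interval is given. Total estimated counts lay between 714904584 and 1090316733 per library.

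Read counts had been assumed in the plan; estimated counts were found and the same test was kept. Values were summed per gene and tested with edgeR 4.0.16 (quasi-likelihood, TMM, filterByExpr, all 12 libraries, no covariate) in R 4.3.3. The code of the fit was also run on simulated data with the same spread for all genes. These libraries differ from that setting, so the run does not show how the fit performs here. All 7 genes passed the filter on low values. SEs come from the F statistic. Ratios were tested by exact permutation with scipy 1.17.1. Alternatives used DESeq2 1.42.0, limma 3.58.1, sva 3.50.0, RLE, other filters and gene sets, a removed length trend, FPKM with a pseudocount of 1 or 0.1, and each replicate left out. The members and lists were chosen with earlier results of these data known. All 7 genes are named by rule, with the 2 identifiers most like them. Lists of other glutamatergic genes and of cell type markers were not analysed here, because no table pairs symbols with Ensembl identifiers.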

Additional observations from a re-analysis of the deposited data

How the results depend on the processing

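No paired analysis was possible because the groups share at most 1 replicate number in their labels (8, in normal and HIBD model). Of the 7 genes, 0 passed an adjusted p of 0.05 in the edgeR fit over all 12 libraries. Between acupuncture and normal this became 1 gene with edgeR on the 2 groups alone, where 3.07% of all genes passed. It became 2 with DESeq2 (15.5% of all genes) and 1 with limma on log2(FPKM + 0.1) (6.24%). Leaving out each replicate left it at 0 to 0, as in the other comparisons. Without normal replicate 10 Gria1 had an edgeR adjusted p of 0.0503. Between acupuncture and HIBD model all 7 log2 fold changes kept their direction in the 20 alternatives, but their size depended on single libraries. Without acupuncture replicate 35 Slc17a7 went from 0.267 to 0.109 and Grin2b from 0.153 to 0.0496. Leaving out each replicate gave 0.109 (without HIBD model replicate 2) to 0.495 (16) for Slc17a7, 0.31 (18) to 0.671 (8) for Camk2a, 0.0494 (18) to 0.266 (8) for Dlg4, 0.135 (2) to 0.328 (16) for Grin1, 0.307 (2) to 0.67 (16) for Grin2a, 0.0456 (2) to 0.305 (16) for Grin2b and -0.398 (8) to -0.194 (18) for Gria1.

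Between HIBD model and normal, log2 fold changes changed sign as follows. Slc17a7 became 0.00789 with RLE and with DESeq2, 0.0307 when genes needed 1 CPM in 4 libraries, 0.0586 with Ensembl genes only, 0.186 without normal replicate 11, 0.147 without HIBD model replicate 2 and 0.148 without HIBD model replicate 18. With 1 surrogate variable Camk2a became -0.482, Dlg4 -0.155, Grin1 -0.233, Grin2a -0.444 and Grin2b -0.0695. In that fit Slc17a7 and Gria1 kept their sign but changed in size, Slc17a7 from -0.00711 to -0.686 and Gria1 from -0.307 to -0.0573. On log2(FPKM + 1) Camk2a became -0.0519 and Grin1 -0.0755, and on log2(FPKM + 0.1) -0.052 and -0.0761. Without normal replicate 13 Camk2a became -0.0436 and Grin1 -0.015. Without HIBD model replicate 8 Camk2a became -0.12, Dlg4 -0.00297 and Grin1 -0.0156, and without HIBD model replicate 16 Camk2a became -0.0164, Grin1 -0.0754 and Grin2a -0.0361. Between acupuncture and normal, 1 surrogate variable turned Slc17a7 to -0.468, Camk2a to -0.0819, Dlg4 to -0.0514, Grin1 to -0.0578 and Grin2a to -0.0304, and took Grin2b from 0.486 to 0.02 and Gria1 from -0.579 to -0.245. Without acupuncture replicate 35 Slc17a7 went from 0.26 to 0.102 and without normal replicate 11 to 0.445. Leaving out each replicate moved the HIBD model against normal values over -0.235 to 0.186 for Slc17a7, -0.12 to 0.239 for Camk2a, -0.00297 to 0.21 for Dlg4, -0.0754 to 0.114 for Grin1, -0.0361 to 0.323 for Grin2a, 0.18 (without HIBD model replicate 16) to 0.436 for Grin2b and -0.39 to -0.182 (without HIBD model replicate 8) for Gria1. The cause was not tested.

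The log2 ratio of Grin2a to Grin2b kept its direction in every alternative run. With each replicate left out it ranged from -0.293 to -0.115 between HIBD model and normal, from 0.27 to 0.448 between acupuncture and HIBD model and from 0.0914 to 0.206 between acupuncture and normal. Over all genes, the number called ranged from 0 to 3753, 0 to 176 and 0 to 4324 in the 3 comparisons, so the percentages of genes called depend on the tool and the libraries. For HIBD model against normal, 27 genes became 5, 3032, 4 or 9 on dropping normal replicate 8, 10, 11 or 13 in turn, and 126, 1, 6 or 6 on dropping HIBD model replicate 2, 8, 16 or 18. For acupuncture against normal, 23 genes became 9, 3094, 4 or 7 on dropping those normal libraries, and 1, 0, 6 or 34 on dropping acupuncture replicate 5, 22, 35 or 55. Depth in reads is unknown, and 4 libraries a group limit the precision.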
